A study of Drosophila melanogaster with 40 samples.

Results

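The loci described here are the expressed loci of the X chromosome in Drosophila S2 cells. They were chosen by position and level: every locus that the deposited tables place on chrX (chrXHet was not counted) and whose FPKM averaged at least 0.9 over a time course. FPKM counts sequenced fragments relative to the length of the transcript and to the size of the library. At 28°C, 1278 of 2429 X loci passed, among 7363 of 15864 loci in the whole table. At 25°C, 1309 of 2429 X loci passed, among 7531 of 15863. Both time courses shared 1209 X members, while 69 passed only at 28°C and 100 only at 25°C. The X members are compared with the loci of chromosome arms 2L, 3L and 3R at the same threshold, called the autosomal arms below (4494 loci at 28°C and 4577 at 25°C).

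The study followed RNA levels in S2 cells, a widely used embryonic line of blood-cell-like origin without a working circadian clock, to ask which transcripts change over the day. Each time course had 20 libraries, taken every 3 h from circadian time (CT) 24 to CT81, with 1 library per time point. The cells of the 28°C course were grown at 28°C, were entrained over 2 days of cycles (12-h phases of 28°C and 23°C) and were left at constant 28°C for 24 h before sampling began. Ribosomal RNA was removed from these samples. The cells of the 25°C course had been entrained for 1 week or longer by alternating 12-h phases of 23°C and 28°C. They received new medium at time 0, stayed at 25°C from then on, and were sequenced from polyA-selected RNA. Temperature, entrainment, RNA fraction and depth therefore differed together between the courses and cannot be told apart. No time point had a second library, so every error below is the scatter of 20 successive values. All groups came from the same unmodified line. The S2 line stands for a single cultured lineage, with a karyotype altered by long culture.

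In Drosophila, males have a single X and females a pair. Males make up for the difference by dosage compensation, in which the male-specific lethal (MSL) complex binds along the X and raises transcription of its genes. The complex holds the proteins MSL-1, MSL-2, MSL-3, MOF and MLE and is built on the noncoding RNAs roX1 and roX2, both transcribed from the X. MOF acetylates histone H4 on the male X, and CLAMP, a zinc finger protein that binds GA repeats, helps the complex to find its entry sites. In females, the splicing regulator Sex lethal (Sxl) keeps MSL-2 from being made. S2 cells are of male type and carry fewer copies of the X than of each autosome. Copy number was not analysed here.

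RNAs tied to sex and to cell type were looked at first. roX2 (chrX:11473097-11474465) had a lowest value of 4.30 FPKM at CT36, a median of 200.4 and a highest value of 546 at CT27 at 28°C, against 120, 150 and 177 FPKM at 25°C. roX2 was thus among the strongly expressed X loci of both courses and was far steadier at 25°C. roX1 averaged only 0.131 FPKM at 28°C and 0.125 FPKM at 25°C and did not enter the member list in either course. The yolk protein genes Yp1, Yp2 and Yp3, expressed in adult females, were listed at 0 in every library at 28°C, and no one of them averaged above 0.235 FPKM at 25°C. Of 6 markers of blood cells, 5 passed the threshold at 28°C and 4 at 25°C, with Hml at 10.0 FPKM and 0.0214 FPKM. No marker of the female germline and follicle cells, muscle or fat body passed. The yolk protein genes are among these tissue markers, so their low values alone cannot tell the sex of a blood-cell-like line. The neuronal gene elav, an X member, averaged 6.61 FPKM at 28°C and 6.65 FPKM at 25°C, while the neuronal gene nSyb was at 0 or 0.0508 FPKM.

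The depth of the libraries set what could be seen in each course. Among low loci, a single read corresponded to a median of 0.839 to 2.31 FPKM, depending on the library, at 28°C and to 0.0261 to 0.0557 FPKM at 25°C. A locus near 0.9 FPKM at 28°C therefore rested on about 1 read per library or fewer as an average over the course. Its reads could all come from a few libraries. The share of X members listed at 0 ranged from 8.29% to 41.9% between libraries at 28°C and from 1.15% to 2.22% at 25°C. Only 361 of the X members at 28°C reached 0.9 FPKM in every library, compared with 1205 at 25°C. Just inside the threshold lay Cyp4d2 (0.9002 FPKM) and CG14053 (0.901 FPKM) at 28°C, and CG12655 (0.913 FPKM) and lncRNA:CR44705 (0.917 FPKM) at 25°C. Just outside lay lncRNA:CR42861 (0.894 FPKM) and CG13377 (0.890 FPKM) at 28°C, and ssp7 (0.889 FPKM) and mgl (0.886 FPKM) at 25°C. Of these, CG14053 was at 0 in 18 of the 20 libraries at 28°C and CG13377 in 17.

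The X held a larger share of expressed loci than the autosomal arms. At 28°C, 52.6% of the X loci passed, against 41.2% on 2L, 46.0% on 3L and 48.04% on 3R. At 25°C, the shares were 53.9% on the X, 41.9% on 2L, 46.7% on 3L and 49.0% on 3R. The order of the arms was the same in both courses. Along the chromosome, in windows of 2 Mb by locus start, the share that passed ranged from 40.0% to 62.2% at 28°C and from 40.0% to 63.9% at 25°C. The highest share in both courses was in the first window, at the tip of the X, and the lowest in the last, which held only 20 loci.

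The expressed X loci were lower than those of the autosomal arms, by an amount that differed between the courses. At 28°C the median of the course means was 10.4 FPKM on the X and 11.4 FPKM on the autosomal arms, a ratio of 0.910. At 25°C it was 19.6 FPKM on the X and 25.2 FPKM on the arms, a ratio of 0.778. At the 10th, 25th, 75th and 90th percentiles the ratio lay between 0.9003 and 0.947 at 28°C. The 25°C difference was widest in the middle of the distribution: the ratio was 0.903 at the 10th percentile, 0.825 at the 25th, 0.805 at the 75th and 0.830 at the 90th. Loci above 100 FPKM made up 6.42% of the X members against 6.68% of the arm loci at 28°C, and 12.8% against 15.6% at 25°C. Since loci are not replicates, these values are descriptions and carry no test.

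**Figure D1:**
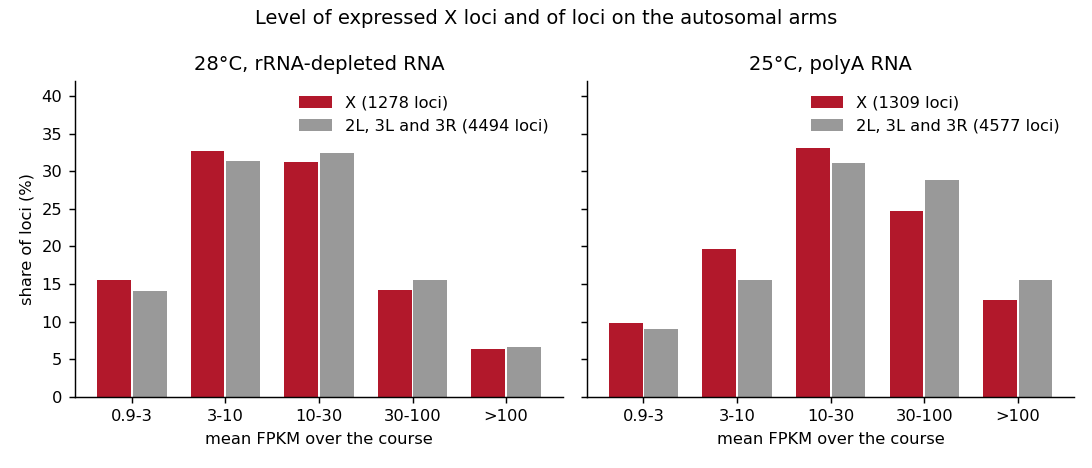
Share of expressed loci (in %) in 5 classes of mean FPKM over the course, for the X (red) and for 2L, 3L and 3R pooled (grey), at 28°C (left) and 25°C (right). At 25°C the X has fewer loci in the classes from 30 to 100 FPKM and above 100 FPKM (24.7% and 12.8%) than the arms (28.8% and 15.6%).

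Within single libraries, the ratio of the X median to the arm median varied widely at 28°C. It was lowest at CT54 (0.841), had a median of 0.965 and was highest at CT60 (1.38), with a mean of 1.01 ± 0.146 (SD over 20 libraries). Only 14 of 20 libraries lay below 1. The high values were those of CT60, CT27 (1.34) and CT48 (1.23), which were also the libraries with the most loci at 0, and in all 20 libraries the X had a smaller share of loci at 0 than the arms. The arms moved in the same libraries, since 2L stood at 1.82 and 3L at 0.627 of the other autosomal arms at CT27. Without CT27, CT48 and CT60, a choice made after the values were seen, the mean ratio was 0.955, and over the 16 libraries with less than 30% of X loci at 0 it was 0.952 ± 0.0579 (SD). The part that depth played in the 28°C ratios was not tested.

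At 25°C the ratio held nearly the same value at every time point. It was lowest at CT60 (0.758), had a median of 0.774 and was highest at CT78 (0.794), with a mean of 0.777 ± 0.00987 (SD over 20 libraries). All 20 libraries lay below 1. Each autosomal arm set against the other 2 stayed closer to 1: 2L averaged 1.05, 3L 1.01 and 3R 0.948. The X had a smaller share of loci at 0 than the arms in 2 of the 20 libraries.

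**Figure D2:**
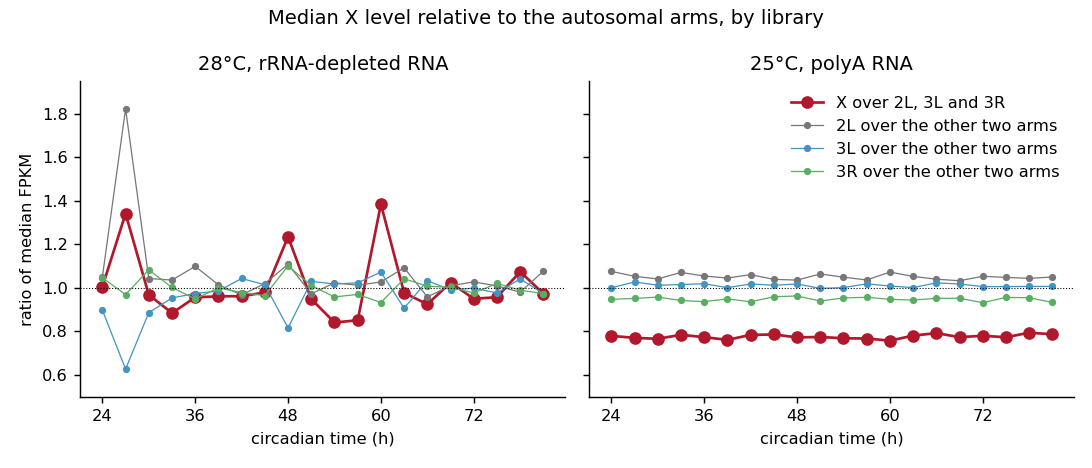
Ratio of the median FPKM of X loci to that of 2L, 3L and 3R pooled in each library (red) against circadian time in h, at 28°C (left) and 25°C (right), with each autosomal arm over the other autosomal arms (thin lines). At 25°C the X lies between 0.758 and 0.794 and apart from every arm. At 28°C it runs from 0.841 to 1.38 and crosses the arms.

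Features of the loci were set beside this difference in level. X members had longer transcripts: among members that matched the annotation (93.7% on the X) the median length was 2172 bases on the X and 1868 bases on the arms at 28°C, and 2123 bases and 1847 bases at 25°C. Within classes of transcript length the 28°C ratio was 1.11 below 1500 bases, 0.931 from 1500 to 3000 bases and 0.883 above, and short X loci stood above short arm loci. The same classes at 25°C gave 0.770, 0.889 and 0.793. The X was thus lower in each class there. Among protein-coding loci only, the mean library ratio was 0.980 at 28°C and 0.785 at 25°C.

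The courses differed most in the small nucleolar RNAs (snoRNAs), which guide the chemical modification of rRNA and lack a polyA tail. The 23 snoRNA loci among the X members had a median of 516 FPKM and 29.5% of the summed X FPKM at 28°C, against 28 loci with a median of 14.3 FPKM and 1.27% at 25°C. On the autosomal arms snoRNAs held 22.7% of the summed FPKM at 28°C. The highest X locus at 28°C was snoRNA:Psi18S-531 (chrX:656592-659163), with a lowest value of 1256 FPKM, a median of 7188 and a highest of 23697. At 25°C this snoRNA had values of 228, 354 and 522 FPKM. The largest positive differences between the courses, as 28°C minus 25°C of the mean log2(FPKM + 1), were also of snoRNAs: snoRNA:Psi28S-3342 (+7.39), snoRNA:U3:9B (+6.67), snoRNA:Psi18S-1854c (+6.47) and snoRNA:Psi28S-1135f (+5.68). Several share the interval of the ribosomal protein gene RpS5a (chrX:17037620-17042297), which holds 15 loci, of which 14 passed at 28°C, and near-identical copies among them may share reads.

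The largest negative differences on this log scale were of several kinds of loci. snoRNA:M with snoRNA:Me28S-G980 differed by -6.87 and snoRNA:Or-CD10 by -6.83, yet neither was absent at 28°C: each was at 0 in most libraries (17 and 19) and reached 5329 FPKM and 15719 FPKM at CT51. Their direction turned with the scale, since their mean FPKM was higher at 28°C, with 578 against 407 FPKM at 25°C for snoRNA:M with snoRNA:Me28S-G980, and 786 against 352 FPKM for snoRNA:Or-CD10. The protein-coding loci CG14795 (-6.06) and CG15308 (-5.39) were at 0 in 15 and 16 of the 28°C libraries. CG15308 had 51.7 FPKM at its lowest, a median of 69.1 and 85.1 FPKM at its highest at 25°C. For the X members of both courses the median difference was -1.40, and for the shared arm loci -1.65, so most loci had lower values at 28°C. By contrast, 70 of 1209 X loci (5.79%) were higher at 28°C, against 4.56% on the arms.

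The highest protein-coding X loci encode ribosomal proteins in both courses. At 28°C, 8 of the 10 highest were ribosomal protein genes and the others were snoRNA:Psi18S-531 and snoRNA:Psi28S-2876. RpL35 led the ribosomal protein genes there with a mean of 4273 ± 1250 FPKM (SD). All 10 highest X loci at 25°C were ribosomal protein genes, led by RpL36 (chrX:522375-523516) with a mean of 7986 ± 1377 FPKM (SD over 20 libraries), RpL35 with 6532 FPKM and RpL37-1 with 6339 FPKM. The X carries 15 ribosomal protein loci in these tables, with medians of 2174 FPKM at 28°C and 5229 FPKM at 25°C, close to the 50 and 51 on the autosomal arms (2171 FPKM and 5388 FPKM).

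Whether X loci changed over the course was tested with limma as a straight line of log2(FPKM + 1) against time, adjusted by Benjamini-Hochberg over all loci of the table at P < 0.05. The change given below is the fitted change over the 57 h of the course with its standard error. At 28°C, 17 X members rose (1.33%, where 1.15% of all loci rose) and 0 fell (0.122% of all loci fell). At an unadjusted P below 0.05, limma gave 132 X loci with a positive and 41 with a negative slope, and Kendall's tau with the same adjustment gave 1 falling locus. The median change was +0.30 on the X and +0.29 on the arms. With every second library only, 0 X loci were called in either direction.

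Far more X loci were called at 25°C, where 439 X members rose (33.5%, where 32.4% of all loci rose) and 455 fell (34.8%, where 35.6% of all loci fell). On the autosomal arms 31.5% rose and 36.7% fell. The X shares therefore lay close to the background in both directions. The median change was -0.0023 on the X and -0.03 on the arms. Changes of more than 1 on the log2 scale were rarer, with 61 of 1309 X loci that rose and 21 that fell. Over all 7531 loci 382 rose and 167 fell by as much, and on the autosomal arms 227 and 116 of 4577. Such rises thus outnumbered such falls on the arms as well. Of the X loci that rose, 14 rose in both courses (82.4% of the 28°C list and 3.19% of the 25°C list), and on the autosomal arms 42 did (80.8% and 2.91%), so the overlap was nearly the same share there.

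**Figure D3:**
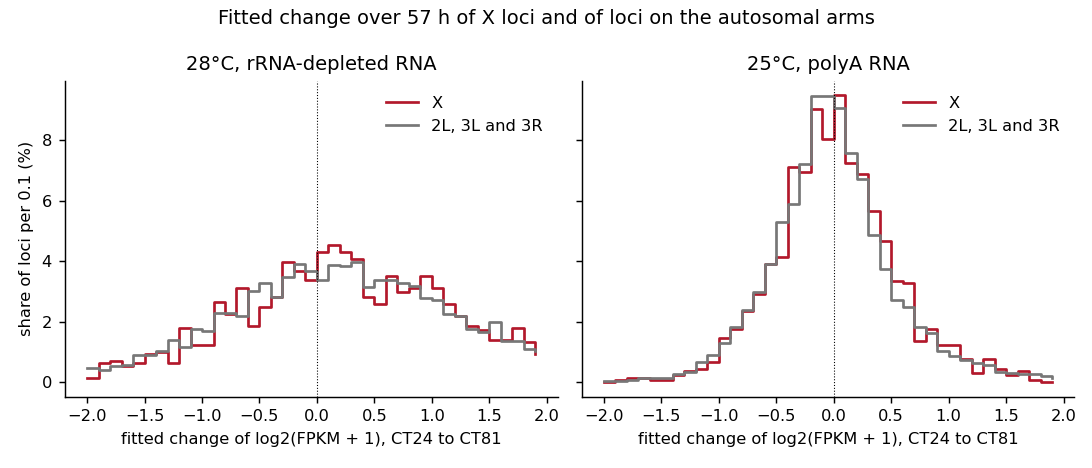
Fitted change of log2(FPKM + 1) from CT24 to CT81 (x axis) and the share of loci in % per 0.1 (y axis) for the X (red) and for 2L, 3L and 3R (grey), at 28°C (left) and 25°C (right). Both outlines lie on each other in both panels, and the 25°C changes are narrower, with medians of -0.0023 on the X and -0.03 on the arms.

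The steepest rise at 25°C was that of an oxidoreductase gene. CG9521 (chrX:14733408-14847730), which encodes a predicted oxidoreductase of the glucose-methanol-choline family, was at 0 FPKM in its lowest library at 28°C, had a median of 13.2 FPKM and reached 49.8 FPKM at CT63, with a change of +1.16 ± 1.03 (SE, adjusted P = 0.69). At 25°C, CG9521 had 2.16 FPKM at CT24, a median of 23.0 FPKM and 188 FPKM at CT81, a change of +5.32 ± 0.46 (SE, adjusted P = 2.22e-09). CG9522 in the same interval, of the same family, ran between 0.0812 FPKM at CT24 and 15.4 FPKM at CT78, with a change of +4.09 (adjusted P = 4.77e-10). The interval holds 16 loci, of which 5 passed at 25°C, and CG12398 (+0.58, singled out after its values were seen) and Flo2 (+0.56, flotillin 2, a scaffold of membrane domains) also rose. The size of the change differed widely between genes of this interval.

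Other steep rises at 25°C lay apart from one another along the X. CBP (chrX:7031755-7299830), a calcium-binding protein, was at 0.0901 FPKM at CT27, had a median of 2.37 FPKM and reached 23.0 FPKM at CT81, with a change of +4.37 ± 0.41 (SE, adjusted P = 9.77e-09). lncRNA:CR45517 (chrX:5322515-5323289) had 5.82 FPKM at CT24, a median of 21.3 FPKM and 45.2 FPKM at CT75, with a change of +2.67 ± 0.12 (SE, adjusted P = 9.71e-14). An unannotated locus at chrX:1988266-2009734 was called (+3.02 ± 0.99 SE, adjusted P = 0.0105), but it was at 0 in 16 libraries and its call was lost with Kendall's tau. CG34330, singled out after its values were seen, was the highest of the loci in this paragraph. It had 264 FPKM at CT24, a median of 1158 FPKM and 2653 FPKM at CT81, with a change of +2.29 ± 0.45 (SE, adjusted P = 0.000138). Pvf1, a ligand of the PDGF and VEGF receptor of the fly (chosen in the same way), had 38.8 FPKM at CT30, a median of 74.4 FPKM and 118 FPKM at CT81, with a change of +1.68 ± 0.07 (SE, adjusted P = 6.03e-14).

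Genes next to each other could move apart at 25°C, as examples picked after their values were seen show. Near the tip of the X, CG14780 (chrX:1366554-1367760, +2.12), rush (chrX:1372584-1375453, +1.07) and CG14795 (chrX:1377511-1411648, +2.48 ± 0.11 SE, adjusted P = 9.12e-14) rose strongly, and CG14795 had 58.1 FPKM at CT27, a median of 122 FPKM and 298 FPKM at CT81. Between rush and CG14795 lies sta, a ribosomal protein gene, which changed by +0.47, while mei-38, between CG14780 and rush, changed by -0.04 (adjusted P = 0.55). inc, which shares the interval of CG14795, fell by 0.41 on the log2 scale (adjusted P = 2.41e-07). RpL36, which rose by +0.72, ends 288 bases before the interval that Mybbp1A and Dredd share. There Mybbp1A, which encodes a nucleolar protein, fell by 1.12 on the log2 scale, while Dredd, a caspase of the immune response, rose by +0.24 (all called). Over all 849 pairs of neighbouring X members within 10 kb, the median correlation of their detrended profiles was 0.0632, against 0.0065 for pairs 50 loci apart (1259 pairs). The arms at 25°C gave 0.0406 against 0.0081 (2L), 0.0334 against 0.0120 (3L) and 0.0683 against -0.0187 (3R), so the X did not stand apart. At 28°C the X had 0.0431 for neighbours and 0.0490 for pairs 50 loci apart, while each arm was higher for neighbours. These are correlations across time points that share libraries, given as a description.

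The steepest falls at 25°C included several genes of ribosome production. bys (chrX:7795912-7797676), which encodes bystin, a factor in the maturation of the small ribosomal subunit, had 16.4 FPKM at CT78, a median of 28.8 FPKM and 46.1 FPKM at CT30, with a change of -1.38 ± 0.09 (SE, adjusted P = 2.6e-11). l(1)G0020 (chrX:8608968-8614310), the fly counterpart of the RNA acetyltransferase NAT10, had 14.6 FPKM at CT81, a median of 25.6 FPKM and 44.98 FPKM at CT24, with a change of -1.45 ± 0.08 (SE, adjusted P = 3.92e-12). Rbm13, the counterpart of yeast Mak16, changed by -1.31 ± 0.09 (SE, adjusted P = 1.22e-10). The other loci named by the rule were CG3038 (-1.87), Inx2 (-1.30, a gap junction protein) and snoRNA:Psi28S-1192c (-1.74). Among genes picked after their values were seen, Sas10 (-1.13), kz (-1.05, a helicase) and peng (-1.06), all with roles in rRNA processing, were also called. This group was assembled with the values in view and is no independent evidence of a direction.

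**Figure D4:**
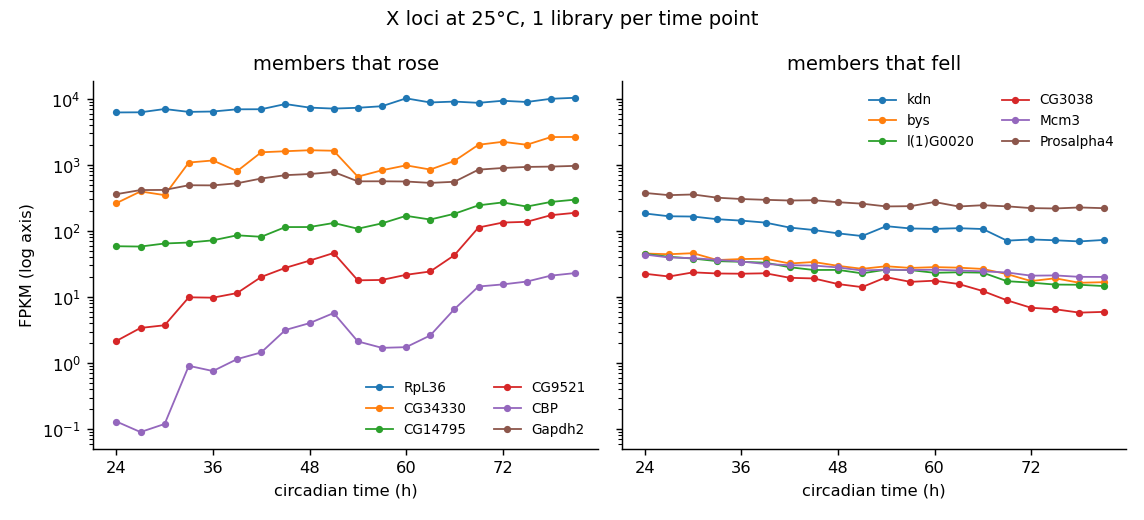
FPKM (log axis) against circadian time in h at 25°C, 1 library per time point, for 6 X loci that rose (left) and 6 that fell (right). CG9521 and CBP climb furthest and step down between CT51 and CT54, while RpL36 stays between 6231 and 10393 FPKM. CG3038 ends lowest relative to its start (22.5 FPKM at CT24 and 5.95 FPKM at CT81), followed by l(1)G0020, bys and kdn.

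The rises were not smooth. Between CT51 and CT54, 274 of the 439 rising X loci (62.4%) had a lower value at the later time point, and their median step was -0.05 on the log2 scale. The rising loci of the autosomal arms shared this step, with 852 of 1443 lower (59.0%) and a median of -0.04. For the X loci this was the largest share over the 19 steps, followed by the step to CT75 (53.99%), and the others lay between 28.7% and 49.0%. CG9521 stepped down there to 17.9 FPKM at CT54, against 46.4 FPKM at CT51. CT54 was the shallowest 25°C library, with a depth of 0.675 relative to the median library, and its neighbour CT51 had 0.778. The count of rising X loci was 437 without CT39, the 25°C library with the largest share of arm loci at 0. No fit was made without CT54, and the part of depth in the step was not tested.

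The genes of known function on the X were taken by the lists described in the processing section. Ribosomal protein genes rose most uniformly: 12 of 15 rose at 28°C (1.15% of all loci rose) and 14 of 15 at 25°C (32.4% of all loci rose). In both courses 0 fell, where 0.122% of all loci fell at 28°C and 35.6% at 25°C. RpS10b, for example, had 1680 FPKM at its lowest, a median of 3131 and 5168 FPKM at its highest at 28°C (+1.20 ± 0.15 SE, adjusted P = 0.00027), and 4769, 5839 and 7188 FPKM at 25°C (+0.57 ± 0.06 SE, adjusted P = 2.68e-08). The medians of the 15 changes were +1.11 at 28°C and +0.37 at 25°C, against +0.30 and -0.0023 over all X members. On the autosomal arms 25 of 50 rose at 28°C, and 39 of 51 rose and 4 fell at 25°C. RpL22, RpS15Aa and RpS28b were the X members not called at 28°C (+0.21, +0.49 and +0.64), and RpL22 was also not called at 25°C (+0.12). RpS14a and RpS14b are near-identical tandem copies that may share reads.

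The remaining rising loci at 28°C were few and mostly sparse. They were snoRNA:Psi28S-3436a (+12.3), snoRNA:U3:9B (+10.5) and snoRNA:Psi18S-1854c (+9.58), Mgstl (+2.88, a glutathione S-transferase-like gene) and an unannotated locus at chrX:7778692-7781009 (+4.27). snoRNA:Psi28S-3436a was at 0 in 8 of 20 libraries, had a median of 791 FPKM and reached 3888 FPKM at CT78. It lies in the RpL17 interval (chrX:6635569-6638271). The fitted changes of these snoRNAs depend on the pseudocount, because early libraries at 0 set them. The calls of Mgstl and snoRNA:Psi18S-1854c were lost without CT27, CT48 and CT60 and with Kendall's tau.

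Cell cycle and replication genes fell at 25°C. Of 12 on the X, 0 were called at 28°C, with a range of -1.75 to +1.02. At 25°C, 10 of the 12 fell and 0 rose, where 35.6% of all loci fell and 32.4% rose, with a median change of -0.42 against -0.0023 over all X members. Mcm3, a subunit of the replicative helicase, had 20.1 FPKM at CT81, a median of 25.9 FPKM and 43.9 FPKM at CT24 (-1.02 ± 0.05 SE, adjusted P = 9.98e-13), and Mcm6 of the same complex changed by -0.96. Rbf, the fly retinoblastoma protein (-0.74), feo, which organises the central spindle (-0.71), and the kinesin Klp3A (-0.58) also fell. Cdk7 (-0.03) and CycD (+0.04) were not called. In bulk RNA, fewer cells in a given state and less RNA per cell cannot be told apart.

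Metabolic genes on the X were called in both directions at 25°C, in shares near those of all loci. At 28°C, 0 of 13 were called, and Gapdh2, a glycolytic enzyme, had +1.45 ± 0.40 (SE, adjusted P = 0.078), the hexokinase Hex-A +1.79 (adjusted P = 0.0897) and Zw, the first enzyme of the pentose phosphate pathway, +3.36 (adjusted P = 0.061). At 25°C, 3 of 12 rose and 5 fell, where 32.4% of all loci rose and 35.6% fell. Gapdh2 had 361 FPKM at CT24, a median of 565 FPKM and 967 FPKM at CT81 (+1.15 ± 0.17 SE, adjusted P = 4.56e-06). Hex-A (+0.97) and Zw (+0.66) also rose. kdn, citrate synthase, had 69.4 FPKM at CT78, a median of 108 FPKM and 184 FPKM at CT24 (-1.28 ± 0.14 SE, adjusted P = 4.87e-08). The locus of sesB and Ant2, carriers of ATP across the mitochondrial membrane, changed by -0.99, ras, of guanine nucleotide synthesis, by -0.88, and r, of pyrimidine synthesis, by -0.50. Ahcy, of the methionine cycle, changed by -0.42. Pgd, a later enzyme than Zw in the oxidative branch, had +0.06 and was not called.

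Of 6 chaperone and proteasome genes, none was called at 28°C, where their changes lay between -0.82 and +0.85, and 4 fell and 1 rose at 25°C, where 35.6% of all loci fell and 32.4% rose. Rpt4, an ATPase of the proteasome cap, had at 25°C 101 FPKM at CT81, a median of 129 FPKM and 185 FPKM at CT24 (-0.90 ± 0.04 SE, adjusted P = 6.48e-14). Prosalpha4, of the proteasome core (-0.74), the mitochondrial chaperone Hsp60A (-0.57) and ubiquilin, Ubqn (-0.24), also fell, and the polyubiquitin gene Ubi-p5E rose (+0.33). Hsc70-3, the chaperone BiP of the endoplasmic reticulum, had -0.15 at 25°C and was not called.

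Of 14 cytoskeleton and trafficking genes, 0 were called at 28°C, and 4 rose and 7 fell at 25°C. With 32.4% of all loci rising and 35.6% falling, no list in this paragraph is read as standing apart from the background. Act5C, the main cytoplasmic actin, had at 25°C 2320 FPKM at CT69, a median of 2811 FPKM and 3439 FPKM at CT33 (-0.52 ± 0.06 SE, adjusted P = 3.0e-07). Moe, which links actin to the membrane, rose (+0.31), as did the lysosomal sorting gene car (+0.67), whereas dor of the same sorting complex fell (-0.17). Of 16 signalling genes, 0 were called at 28°C, and 8 rose and 4 fell at 25°C. Ilp6, an insulin-like peptide, had 114 FPKM at CT81, a median of 154 FPKM and 235 FPKM at CT24 (-0.97 ± 0.05 SE, adjusted P = 2.72e-13). The risers were small in size, with csw (+0.45, a tyrosine phosphatase) and trol (+0.38, perlecan) the largest, and hop, the JAK kinase, fell (-0.26). Of 13 genes for transcription and RNA handling, 0 were called at 28°C. At 25°C 4 rose, among them Trf2 (+0.55), and 6 fell, among them nonA (-0.76) and Spt6 (-0.45).

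Of the genes for dosage compensation, only roX2 and mof were X members. roX2 had a change of +1.05 ± 0.95 (SE, adjusted P = 0.69) at 28°C, and at 25°C it fell by 0.30 on the log2 scale (± 0.10 SE, adjusted P = 0.0123). The 25°C call of roX2 was lost with every second library. mof, the acetyltransferase, had 16.2 FPKM at its lowest, a median of 17.7 and 19.5 FPKM at its highest at 25°C and was not called (+0.06). The autosomal partners mle (-0.20), msl-1 (-0.36), msl-3 (-0.15) and Clamp (-0.10) had small negative changes at 25°C. There 35.6% of all loci and 36.7% of the arm loci fell, so these few genes are not read as standing apart. The locus that holds msl-2 with mir-4971 had medians of 11.0 FPKM at 28°C and 18.3 FPKM at 25°C, but single libraries reached 914 FPKM and 91.4 FPKM, and it was not called.

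Among genes of sex determination, Sxl and snf passed. The locus of Sxl with mir-4956 had a median of 12.1 FPKM at 28°C, with a single library of 1845 FPKM at CT63. At 25°C it had 23.8 FPKM at CT27, a median of 35.1 FPKM and 65.98 FPKM at CT78, and rose (+1.21 ± 0.14 SE, adjusted P = 1.28e-07). RNA of Sxl is made in both sexes and is spliced differently, and these tables do not separate the forms. snf, a spliceosome protein needed for Sxl splicing in females, fell at 25°C (-0.43, adjusted P = 2.7e-07). The X-counting genes sc, sisA, run and upd1 did not pass in either course, nor did the clock gene per, with 0.786 FPKM at 28°C and 0.128 FPKM at 25°C.

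Long noncoding RNAs on the X rose more often than they fell at 25°C. Of 40, 23 rose and 2 fell, where 32.4% of all loci rose and 35.6% fell. On the autosomal arms 55 of 89 rose and 5 fell, so the X did not stand apart in this. lncRNA:CR40469 (chrX:18879-19093), the first X locus of the table, had 1047 FPKM at CT33, a median of 1395 FPKM and 2991 FPKM at CT81 (+1.36 ± 0.18 SE, adjusted P = 8.5e-07). lncRNA:CR43264 had 292 FPKM at CT33, a median of 481 FPKM and 740 FPKM at CT60 (+1.18 ± 0.18 SE). Both were picked after their values were seen. Of 28 snoRNAs, 0 rose and 2 fell at 25°C.

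Calls were spread along the X. At 28°C the 17 calls fell into 8 windows of 2 Mb, with 7 of them among the 129 members between 6 and 8 Mb. Over all loci 1.15% rose. At 25°C, 62 of 149 members rose and 38 fell in the first window, and 59 of 137 rose and 36 fell between 6 and 8 Mb. Between 16 and 18 Mb, 38 of 146 rose and 60 fell. Over all loci 32.4% rose and 35.6% fell. The other windows are not listed and no windows of the autosomal arms are set beside these, so none is read as standing apart. Window medians of the change ran between -0.14 and +0.12.

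Whether the X as a whole moved against the other arms was tested with 1 value per library: the median over X loci of log2(FPKM + 1), each locus centred on its course mean, less the same median over the autosomal arms. For the X at 28°C no trend could be told from scatter (r = -0.0612, permutation P = 0.799; rho = -0.0481, permutation P = 0.839). Its values ran between -0.13 at CT54 and +0.09 at CT27. r was -0.0869 without CT24 and CT81. 2L was the only arm with an adjusted P below 0.05 there (r = -0.595, permutation P = 0.00462, adjusted over 8 relations 0.0185; rho = -0.621).

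At 25°C this value ran between -0.02 at CT54 and +0.04 at CT78. It rose with time by 0.02 ± 0.01 (SE) over the course, with Pearson r = 0.447 (permutation P = 0.0485, 0.129 after Benjamini-Hochberg adjustment over 8 relations) and Spearman rho = 0.453 (permutation P = 0.0467, adjusted 0.12), which does not pass. Without CT24 and CT81, the libraries farthest from the middle of the course, r was 0.502. The clearest relation at 25°C was that of 3R, which fell against the other arms (r = -0.828, permutation P = 2e-05, adjusted 0.00016; rho = -0.808). X against 3R alone gave r = 0.621, against 0.254 for 2L and 0.369 for 3L alone. The difference between the slopes of the X, 28°C minus 25°C, was -0.0357 over the course (permutation within time points, P = 0.403).

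**Figure D5:**
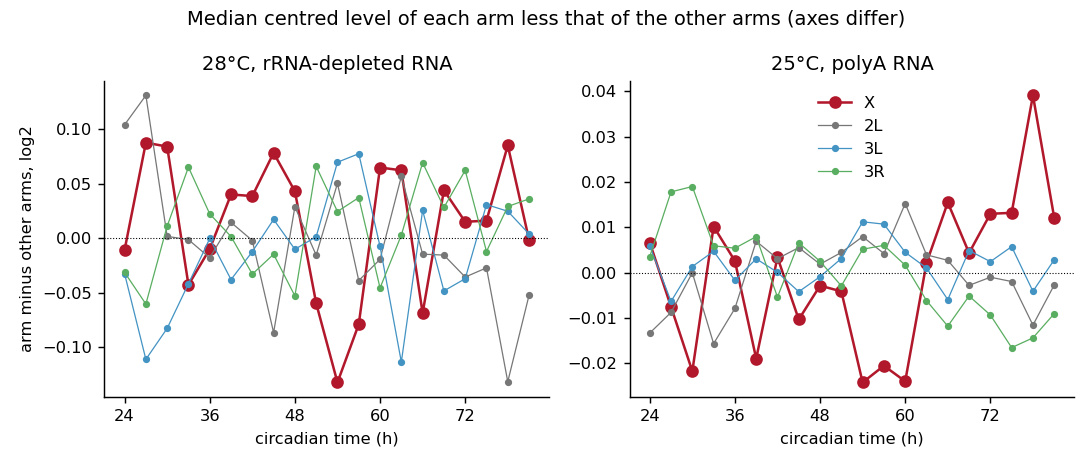
Median centred level of each arm less that of the other arms (log2, y axis, with a separate scale for each panel) against circadian time in h, at 28°C (left) and 25°C (right). The X (red) runs between -0.13 and +0.09 at 28°C and between -0.02 and +0.04 at 25°C, where it lies above 0 in each library after CT60 and 3R (green) falls.

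The level of the X against the arms was then compared between the courses over loci that passed in both (1209 X loci and 4251 arm loci). The log2 ratio of medians averaged -0.01 ± 0.16 at 28°C and -0.35 ± 0.02 at 25°C (SD, n = 20 libraries each). The difference was 0.34, or 1.26-fold, with a permutation P of 1e-05, the smallest that 100000 resamples can give, and 28°C was higher at 20 of 20 time points. Each condition had a single course, so this P measures scatter between successive libraries and not between repeats of a condition. The difference was 0.31 over protein-coding loci and 0.28 without CT27, CT48 and CT60. No such difference was detected among the 359 X loci and 1218 arm loci that never fell under 0.9 FPKM in any library of either course. There the ratios were 0.889 at 28°C and 0.893 at 25°C, a log2 difference of -0.00703 (permutation P = 0.71), with 28°C higher at 11 of 20 time points. Over the wider set the ratios had been 0.992 at 28°C and 0.786 at 25°C. Levels of single X loci kept much of their order between the courses (Spearman rho = 0.822 over 1209 loci, as a description).

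The spread of X loci over time, as the SD of log2(FPKM + 1) over 20 libraries, was close to that of the arms. At 28°C its median was 1.20 on the X and 1.29 on the arms, a ratio of 0.929. At 25°C it was 0.148 on the X and 0.148 on the arms, a ratio of 0.994. The 28°C spread was lower on the X in the classes from 3 to 10 FPKM (1.37 against 1.47), from 10 to 30 FPKM (1.20 against 1.35) and from 30 to 100 FPKM (0.770 against 0.866), and higher above 100 FPKM (0.692 against 0.567). Of the X members at 28°C, 890 were at 0 in at least 1 library, compared with 43 at 25°C.

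The steadiest and the most variable members differed in kind. At 28°C the steadiest X loci with at least 10 FPKM were RpS15Aa (0.26), CG4199 (0.27), pigs (0.28) and Rip11 (0.28). The steadiest at 25°C were arm with Ldaf1 (SD 0.04), Stt3A of the oligosaccharyltransferase (0.04), the small GTPase Rab10 (0.05) and CG1440 (0.05). arm, the fly beta-catenin, had 241 FPKM at its lowest, a median of 257 FPKM and 268 FPKM at its highest at 25°C. The widest at 28°C were 4 snoRNAs, with snoRNA:Psi28S-3436a at 5.40. At 25°C the widest included CG9521 (1.78) and mir-4965 (2.88), which was at 0 in 8 libraries.

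Rhythms were sought with JTK-Cycle, a rank test of each detrended profile against cosines of 21, 24 and 27 h, at an adjusted P below 0.05 per locus. On the X, 35 loci passed at 28°C (2.74%, where 2.3% of all loci passed) and 58 at 25°C (4.43%, where 5.8% passed). On the arms the shares were 2.27% and 6.03%. The smallest P after a further adjustment over loci was 1 at 28°C and 0.585 at 25°C on the X, so that no single X locus passed over the whole table. The longest period searched was the most frequent, with 23 of 35 loci at 28°C and 31 of 58 at 25°C. Over all loci it was also the most frequent, with 101 of 169 at 28°C and 271 of 437 at 25°C.

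Single profiles with the smallest P show the size of these patterns. At 28°C, BCL7-like came first (period 24 h, P = 0.000278), with values between 0 and 24.4 FPKM, followed by the locus of IP3K2 (period 27 h, P = 0.000869) and CG1703 (period 27 h, P = 0.00176). NO66, a nucleolar oxygenase, had 25.4 FPKM at CT72, a median of 32.4 FPKM and 40.4 FPKM at CT24 at 25°C (period 21 h, P = 0.000869), on top of a fall of 0.64 on the log2 scale. CG3038 was next (period 24 h, P = 0.00124), and Miga, a mitochondrial outer membrane protein, had 11.5, 12.5 and 13.8 FPKM (period 27 h, P = 0.00469).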

How the data were processed

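RNA-seq reads of single-end 50-base libraries were aligned by the authors to the dm3 build with TopHat 2.1.0 and assembled into loci with Cufflinks 2.2.1 tools (versions from the submitters' processing notes); the 28°C alignments were first subsampled by the authors to a common maximum. The deposited FPKM values were scaled for length and library by the authors with Cuffnorm, so the tables hold no raw counts. The study's methods give depth as limits or averages of a course, not per library, and relative depth per library was estimated from steps at low loci, where 73.5% (28°C) and 63.1% (25°C) of values lay within 0.05 read of a whole read; FPKM are relative, so a rise is a rise in share. Methods describe lysis in triplicate, but each time point has 1 library, and p-values measure scatter along a course. The labels name another library kit than the methods.

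Loci were matched between the tables by position and accessions (2429 X loci; their identifiers are shifted). Symbols came from RefSeq accessions (99.5% of members), transcript lengths from Ensembl release 115 by name, and no coordinate of another build was used. At 28°C 476 members, and at 25°C 512, shared an interval with another locus, and 74 and 76 held several genes.

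Slopes were fitted with limma 3.58.1 (R 4.3.3) on log2(FPKM + 1) with empirical Bayes variance trend and Benjamini-Hochberg adjustment over all passing loci. JTK-Cycle was rewritten in Python 3.11.15 (numpy 2.4.6, scipy 1.17.1, pandas 2.3.3) with 24 references and Bonferroni adjustment. Permutation tests were two-sided with 100000 resamples. On simulated data at 28°C, limma called 74% of trends of 1 SD and 0.154% of 7163 profiles without one (of 7363), and at 25°C 68% and 0.123% of 7331 (of 7531). Residuals from the line had a median correlation between successive libraries of -0.0784 at 28°C and 0.213 at 25°C, which the test of a line does not allow for.

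The members and lists were chosen with earlier results of these data known. Named genes were the listed genes on X, the 10 highest, the 6 largest called rises and falls, the 4 widest and narrowest with at least 10 FPKM, the 3 smallest JTK-Cycle P, the 2 on each side of the threshold and the 4 largest differences in each direction between courses; exceptions are marked. Alternatives were other thresholds and pseudocounts, median-of-ratios rescaling, Kendall's tau, cosinor regression, fewer libraries and single-gene or protein-coding loci. The listed genes upd2 and e(y)1 were not matched. A planned search for promoter motifs was not run, since promoter sequences were not used here.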

Additional observations from a re-analysis of the deposited data

Results flagged for a closer look

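The log2 ratio of the X median to the median of the autosomal arms differed between the courses by 0.34 (28°C minus 25°C, permutation P = 1e-05), with -0.01 ± 0.16 at 28°C and -0.35 ± 0.02 at 25°C (SD, n = 20 libraries each). It was picked out because the difference itself passed a test between the courses, which differ together in temperature, entrainment, RNA fraction and depth. Each condition had a single course, so the libraries are not repeats of a condition. Among loci that never fell under 0.9 FPKM in either course the difference was -0.00703 (permutation P = 0.71).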

How the results depend on the processing

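With no threshold the X to arm ratio had no value at 28°C, as medians were 0, and was 2.74 at 25°C, where they are near 0. The 25°C ratio otherwise stayed below 1 with 0.9 FPKM in every library (0.787), a mean of at least 5 FPKM (0.800) and means of log2(FPKM + 1) in place of medians (0.835). At 28°C, the rising count of 17 became 0 and 0 with every second library, and the falling count of 0 became 4 with 0.9 FPKM in every library, 1 without CT24, 1 without the shallowest library, 1 with Kendall's tau and 4 without CT27, CT48 and CT60. Without CT24 the counts were 14 rising at 28°C, and 434 rising and 436 falling at 25°C. The 28°C relation of the X to time changed sign to r = 0.092 (0.9 FPKM in every library), 0.0794 (without the shallowest library) and 0.0793 (without CT27, CT48 and CT60). The spread ratio was 0.975 at 28°C with 0.9 FPKM in every library and 1.01 at 25°C with the line subtracted; leaving out 1 library gave 0.920 to 0.943 and 0.993 to 1.01. Rhythmic X loci numbered 17 (0.9 FPKM in every library) and 93 (cosinor) at 28°C, and 22 (no detrending) and 148 (cosinor) at 25°C. The difference between the courses was 0.337 without CT24, and reversed to -0.00703 with 0.9 FPKM in every library of both. The causes of these shifts were not tested. Of 109 called named loci at 25°C, 94 and 93 kept their call with every second library. No paired analysis was possible by replicate number, because these numbers only name libraries. With libraries paired by time point in place of that, the difference was 0.336 (permutation P = 1e-05). With 1 read worth over 0.839 FPKM at the median low locus at 28°C, low X loci there rest on single reads.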
